A study of Mus musculus with 33 samples.

Results

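Expression of 8 canonical Wnt pathway genes was followed in mouse embryonic stem cells (ESCs) lacking heterochromatin protein 1 (HP1) or the histone methyltransferase SETDB1. These genes, *Axin2*, *Nkd1*, *Lef1*, *Tcf7*, *Tcf7l1*, *Sp5*, *Cdx1* and *Lgr5*, were chosen by name as widely used targets or transcription factors of the pathway, and all 8 were found among the 55487 genes of the deposited tables. The choice was made with earlier results of these data known. The study asked what the HP1 family does in ESCs, by RNA-seq of 33 libraries in 11 conditions of 3 libraries each. The conditions were constitutive knockouts of *Hp1α*, *Hp1β* or *Hp1γ*, their double knockouts (*Hp1α/β*, *Hp1α/γ* and *Hp1β/γ* Δ/Δ), the *Hp1α/β/γ* Δ/Δ triple knockout, *Setdb1* F/F and *Setdb1* Δ/Δ cells, and a pair of *wild-type* groups. The latter are called set A, the control of the single mutants, of the *Hp1α/β* double and of the triple mutant, and set B, the control of the other double mutants. The mutants are written below as *Hp1α*-null and so on, with triple-null for cells without any of the 3 paralogs. All comparisons with set A therefore share the same 3 control libraries, and those with set B share theirs.

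All lines were labelled as C57BL/6 ESCs, and the methods describe culture with serum and LIF on growth-arrested mouse embryonic fibroblasts, which were depleted before collection by brief plating on gelatin. Triple-null cells were made by Cre transfection of *Hp1α/β*-null cells with a floxed *Hp1γ*, and the study describes death and arrest of many of these cells in the days after the deletion. Their RNA was taken within days of the transfection, whereas the single and double mutants were constitutive lines. *Setdb1* F/F cells carry loxP sites around *Setdb1* exons that Cre removes. For the triple-null experiment the study names as the control *Hp1α/β*-null, *Hp1γ*-floxed cells given a control vector, whereas the labels call set A *wild-type*. *Cbx5* and *Cbx1*, which encode HP1α and HP1β, were at 479 to 490.4 and 430 to 448 CPM (counts in 1 M counts, scaled over all libraries by edgeR's TMM method) in set A, above the 199 to 208 and 94.7 to 97.6 CPM of *Hp1α/β*-null ESCs. Set A is therefore treated as labelled, as a *wild-type* control of the triple-null line, and for the genes tested there the values against *Hp1α/β*-null ESCs are given as well. In both comparisons transfection, the short time since Cre and the line cannot be told apart from loss of HP1. The study isolated edited ESCs as individual clones and describes 3 biological replicates, for the triple-null line from 3 independent experiments. Whether the replicates of the other lines were separate clones or cultures is not stated there or in the labels, so p-values measure the spread between these libraries.

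In canonical Wnt signalling a secreted Wnt protein binds a Frizzled receptor and an LRP co-receptor, which stops a cytoplasmic complex built on AXIN and APC from destroying β-catenin. β-catenin then enters the nucleus and switches on genes bound by the TCF/LEF factors, which without it recruit Groucho/TLE corepressors. In ESCs the pathway favours self-renewal, largely by relieving repression by TCF7L1 of pluripotency genes, and in the embryo it drives formation of the primitive streak. *Axin2* and *Nkd1* are targets that feed back to inhibit the pathway, *Lef1*, *Tcf7* and *Tcf7l1* encode its nuclear factors, *Sp5* and *Cdx1* encode transcription factors it induces, and *Lgr5* encodes a receptor for the R-spondins, which enhance Wnt responses.

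Promoter sequences of *Sp5* and *Axin2* are shown because the pair rose together in *Hp1α/β*-null and *Hp1β/γ*-null ESCs and moved apart in triple-null cells. They are the 250 bases before the start, from RefSeq on GRCm38.p6, of *Sp5* at chr2:70474673-70474922 and of *Axin2* at chr11:108920099-108920348, both on the plus strand. Capitals mark the TCF/LEF heptamer CTTTGAT, which was searched on both strands as CTTTGAT or ATCAAAG.
Sp5: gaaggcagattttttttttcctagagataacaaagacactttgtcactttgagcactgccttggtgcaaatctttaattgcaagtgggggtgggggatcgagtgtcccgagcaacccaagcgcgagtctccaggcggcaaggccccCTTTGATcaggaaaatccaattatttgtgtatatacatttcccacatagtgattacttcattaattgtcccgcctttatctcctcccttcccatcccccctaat
Axin2: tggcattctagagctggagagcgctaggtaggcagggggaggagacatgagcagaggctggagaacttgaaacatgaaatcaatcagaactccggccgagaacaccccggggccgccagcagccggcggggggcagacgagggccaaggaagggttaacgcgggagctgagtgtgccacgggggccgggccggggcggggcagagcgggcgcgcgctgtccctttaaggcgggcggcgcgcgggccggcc
The *Sp5* window held the heptamer once, at positions −104 to −98 from the start, and the *Axin2* window did not hold these letters. Only these exact letters within the windows were searched. Other spellings and sequence further away were not, so neither result shows whether TCF/LEF factors bind near either gene. RefSeq windows of 300 bases, from 250 before to 50 after the start, were held for 6 of the 8 genes, 10 windows in all, and the heptamer was in 1 of the 10. Of all 32851 windows, 1225 or 3.73% held it.

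The libraries held 17330936 to 25743149 counts, and *Cbx5*, *Cbx1*, *Cbx3* (which encodes HP1γ) and *Setdb1* were lower in every library of the mutants made for them than in every library of their controls, with none at 0. ESC markers were above 0 in all conditions, and the summed level of 7 of them was 3316 to 3340 CPM in set A. It was 1064 to 1102 CPM in triple-null cells, where 6 endoderm markers summed to 22.9 to 23.6 CPM against 1.89 to 2.31 CPM in set A. In *Hp1α/γ*-null ESCs replicate 2 had a scaling factor of 0.783, against 0.908 and 0.900 in the other libraries of that line, so that results of the 8 genes in this line are also given without it. In bulk RNA, fewer cells that express a gene and less of its RNA per cell cannot be told apart.

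The 8 genes differed widely in level. On the deposited TPM, which are per transcript length, set A ESCs had 46.7 ± 2.08 TPM (SD, n = 3) of *Tcf7l1* and 39.7 ± 2.57 TPM (SD, n = 3) of *Tcf7*. The other 6 lay far below, with 1.90 TPM of *Axin2*, 1.48 TPM of *Lef1*, 1.22 TPM of *Nkd1*, 0.940 TPM of *Sp5*, 0.293 TPM of *Cdx1* and 0.133 TPM of *Lgr5*. *Lgr5* had 162 counts over all 33 libraries together and stayed under 1 CPM in each. The number of the 8 genes that passed the filter on low counts thus varied from 6 to 8 between comparisons, and the genes that did not pass were not tested there. A gene near 0 in one group passes through the other group, and can then in effect be called only as higher in the latter. Levels below are in CPM and serve to compare conditions for the same gene. A gene is termed called where edgeR's quasi-likelihood test gave it a p under 0.05 after Benjamini-Hochberg adjustment over all genes tested, with an absolute log2 fold change over 1. Past the adjusted p alone means that only the former held.

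**Figure D1:**
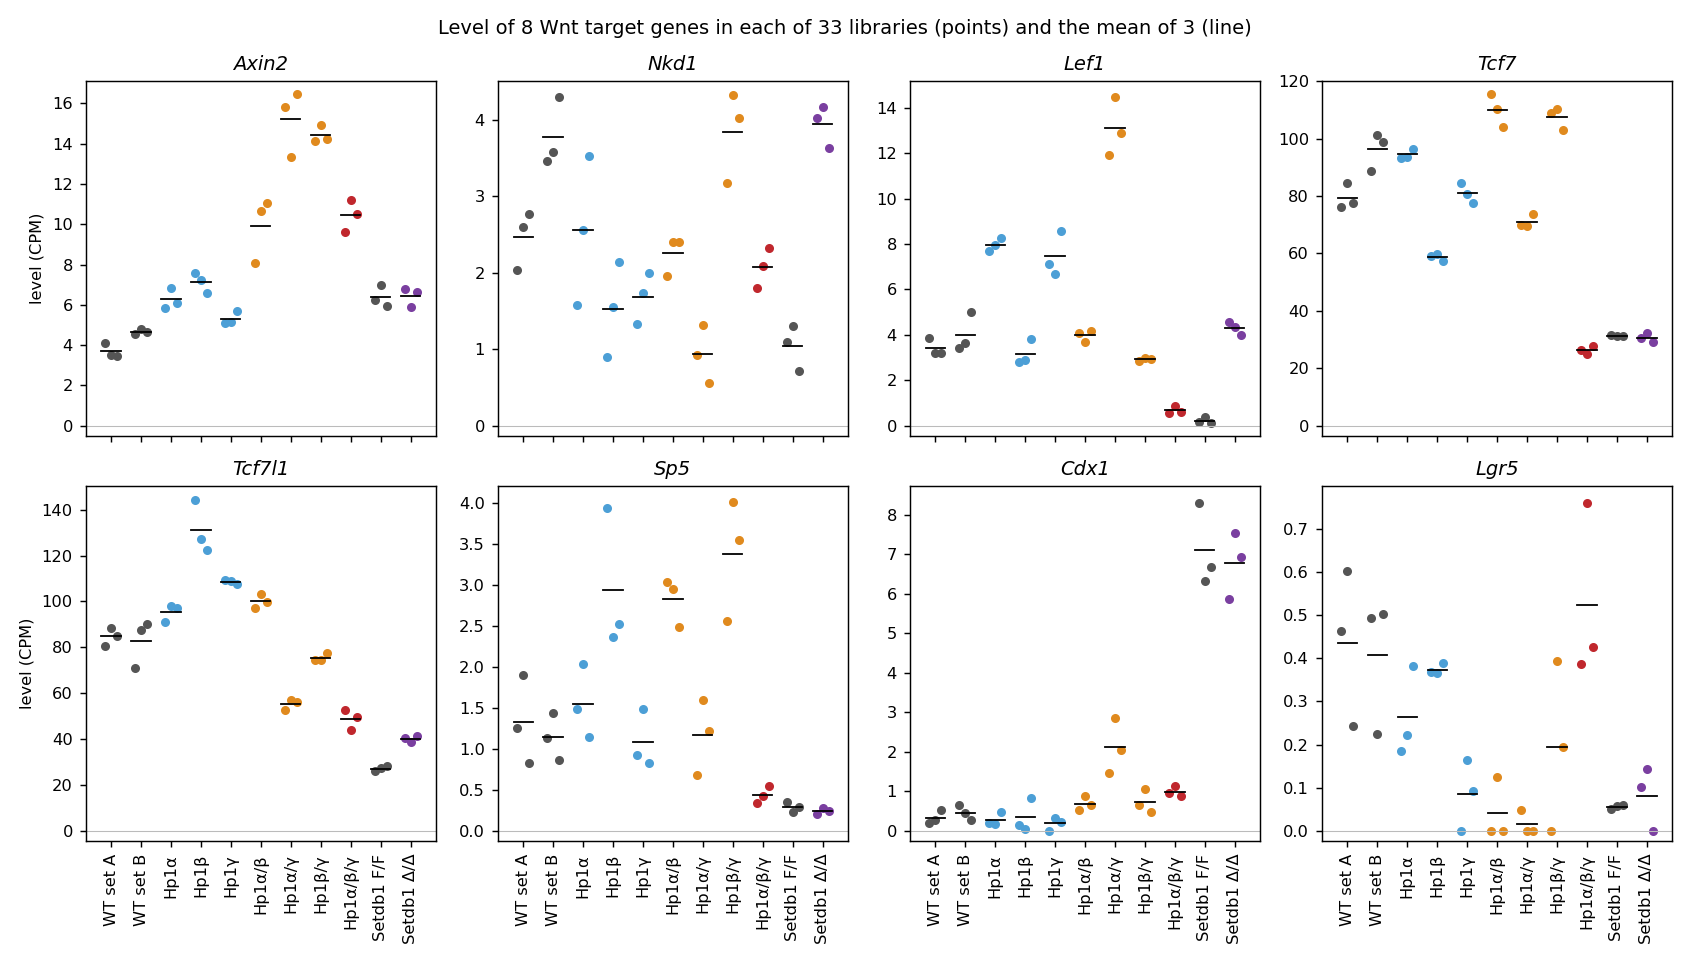
Level in CPM of the 8 genes (panels, linear axes) in each library of the 11 conditions, with points for libraries, lines for means of 3, grey for controls, blue for single, orange for double and red for triple Hp1 mutants, and purple for Setdb1-null cells. Axin2 was lowest in the *wild-type* sets (3.44 to 4.79 CPM) and highest in Hp1α/γ and Hp1β/γ mutants (13.4 to 16.5 CPM), whereas Tcf7 was lowest in Hp1α/β/γ mutants (25.1 to 27.6 CPM).

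The *wild-type* sets were compared first, since they set the scale of the differences between lines. None of the 7 genes tested by edgeR was called between set B and set A, where 5.68% of the 16008 genes tested were called in either direction, nor was any called by DESeq2. At an unadjusted p under 0.05, 2 of the 7 differed, *Tcf7* and *Nkd1*, and both also passed the adjusted p, as did 24.8% of all genes. *Nkd1* had 3.46, 3.58 and 4.30 CPM in set B and 2.04, 2.59 and 2.76 CPM in set A, a log2 fold change of 0.62 (adjusted p = 0.0315) that lost the adjusted p with DESeq2 (0.0624) and without set B replicate 2 (0.0587) or 3 (0.143) or set A replicate 1 (0.115) or 2 (0.0568). *Tcf7* was higher in set B by a log2 fold change of 0.28 (adjusted p = 0.0029), with 88.9 to 101 CPM against 76.1 to 84.7 CPM. For both genes the sets did not overlap. Nor did they for *Axin2*, at 4.54 to 4.79 CPM in set B against 3.44 to 4.12 CPM in set A. Its log2 fold change of 0.34 did not pass the adjusted p (0.142). The summed level of 10 feeder fibroblast markers was also higher in set B, at 41.5 to 49.99 CPM against 24.4 to 25.3 CPM in set A, with *Lum* at 0 in both, and its part in these differences was not tested.

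*Axin2* (ENSMUSG00000000142, chromosome 11, 108920349 to 108950783 on GRCm38), the scaffold of the β-catenin destruction complex that Wnt signalling induces as a brake on itself, was higher in each of the 7 Hp1 mutants than in its *wild-type* set. It had 4.12, 3.52 and 3.44 CPM in set A. It had 5.83, 6.85 and 6.11 CPM in *Hp1α*-null ESCs, 7.56, 7.25 and 6.60 CPM in *Hp1β*-null ESCs and 5.08, 5.16 and 5.70 CPM in *Hp1γ*-null ESCs. All 9 libraries of the single mutants thus lay above all 3 of set A, with log2 fold changes of 0.76, 0.93 and 0.52 that passed the adjusted p (0.000793, 0.000409 and 0.0185) but not the fold threshold. The value of *Hp1γ*-null ESCs was the least firm of these, since it fell to 0.19 (adjusted p = 0.279) with set B as the control and lost the adjusted p when *Hp1γ*-null replicate 3 (0.0653), set A replicate 2 (0.0534) or set A replicate 3 (0.0557) was left out.

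Loss of a second paralog came with higher *Axin2*. *Hp1α/β*-null ESCs had 8.09, 10.7 and 11.1 CPM, a log2 fold change of 1.43 (SE 0.157, adjusted p = 9.23e-07) against set A. *Hp1α/γ*-null ESCs had 15.8, 13.4 and 16.5 CPM and *Hp1β/γ*-null ESCs had 14.2, 14.9 and 14.3 CPM, against 4.54, 4.79 and 4.67 CPM in set B, log2 fold changes of 1.67 (SE 0.149, adjusted p = 0.000208) and 1.63 (SE 0.101, adjusted p = 3.22e-09). In order of mean level the double mutants *Hp1α/γ*-null and *Hp1β/γ*-null came first, and their libraries overlapped. Triple-null cells followed with 9.61, 11.2 and 10.52 CPM, called against set A with a log2 fold change of 1.53 (SE 0.141, adjusted p = 7.28e-09). They overlapped *Hp1α/β*-null ESCs, which the study describes as constitutive knockouts apart from the floxed cells given Cre, and the log2 fold change between these was 0.09 (SE 0.128, adjusted p = 0.526). *Setdb1* F/F and *Setdb1*-null cells lay among the single mutants, at 6.25, 7.0 and 5.96 CPM and at 6.78, 5.87 and 6.65 CPM, and did not separate (log2 fold change 0.02, SE 0.123, adjusted p = 0.882).

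*Nkd1* (ENSMUSG00000031661, chromosome 8, 88521354 to 88594884), a Dishevelled-binding inhibitor that Wnt signalling also induces, did not follow *Axin2*. It had 0.930, 1.32 and 0.560 CPM in *Hp1α/γ*-null ESCs, all below the lowest set B library, a log2 fold change of −2.07 (SE 0.300, adjusted p = 0.00148). In *Hp1β/γ*-null ESCs, in which *Axin2* had risen about as far, *Nkd1* had 3.17, 4.32 and 4.02 CPM and overlapped set B (log2 fold change 0.02, adjusted p = 0.916), but with set A as the control it passed the adjusted p as higher (0.65, adjusted p = 0.0103). In *Hp1α/β*-null ESCs it was at −0.12 against set A and passed the adjusted p as lower against set B (−0.74, adjusted p = 0.0076). In the single mutants it had 0.893 to 3.53 CPM and passed no test against set A. With set B as the control it was called lower in *Hp1β*-null (−1.31, adjusted p = 0.0021) and *Hp1γ*-null ESCs (−1.15, adjusted p = 0.000567), and without *Hp1β*-null replicate 3 it was called lower against set A as well (−1.01, adjusted p = 0.0332).

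In triple-null cells *Nkd1* had 1.80, 2.09 and 2.32 CPM, overlapping set A, with a log2 fold change of −0.21 (adjusted p = 0.438). Against *Hp1α/β*-null ESCs the value was −0.10 (adjusted p = 0.713), and against set B −0.82 (adjusted p = 0.00152). The 926 genes tested on its chromosome 8 had a median log2 fold change of 0.52 in triple-null cells against set A, and those of all other chromosomes 0.0030. The part of this shift in the value of *Nkd1* was not tested. Among all conditions *Nkd1* was highest in *Setdb1*-null cells, at 4.02, 4.17 and 3.63 CPM, although *Hp1β/γ*-null ESCs and set B overlapped these.

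*Lef1* (ENSMUSG00000027985, chromosome 3, 131110471 to 131224356), a nuclear factor that activates targets with β-catenin and is itself induced by Wnt signals, had the widest range, in proportion to its level, among the 3 TCF/LEF genes. It had 3.84, 3.20 and 3.20 CPM in set A and 3.41, 3.63 and 4.99 CPM in set B. *Hp1α*-null ESCs had 7.68, 7.95 and 8.26 CPM and *Hp1γ*-null ESCs 7.13, 6.68 and 8.57 CPM, above every *wild-type* library, while *Hp1β*-null ESCs had 2.78, 2.87 and 3.83 CPM and overlapped set A. The log2 fold changes were 1.22 (SE 0.154, adjusted p = 1.89e-06) for *Hp1α*-null, 1.12 (SE 0.166, adjusted p = 1.88e-05) for *Hp1γ*-null and −0.13 (SE 0.211, adjusted p = 0.647) for *Hp1β*-null ESCs.

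The double mutants followed the same order. *Lef1* reached its highest level in *Hp1α/γ*-null ESCs, at 11.9, 14.5 and 12.9 CPM, a log2 fold change of 1.66 (SE 0.179, adjusted p = 0.000418) against set B. In *Hp1α/β*-null ESCs it had 4.07, 3.69 and 4.18 CPM, with a log2 fold change of 0.22 (adjusted p = 0.368). In *Hp1β/γ*-null ESCs it had 2.86, 2.97 and 2.94 CPM, with a log2 fold change of −0.45 (adjusted p = 0.0459), a value that lost the adjusted p without any of the 3 *Hp1β/γ*-null libraries or set B replicate 3 (0.0849 to 0.249) and with DESeq2 (0.1003). Among the single and double mutants, those with *Hp1β* intact were thus above their *wild-type* set and those without *Hp1β* overlapped or lay below it, but a test of *Hp1β* status over these lines was not made.

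Triple-null cells had 0.558, 0.856 and 0.619 CPM of *Lef1*, below every library of the other Hp1 mutants and of both *wild-type* sets. The log2 fold change was −2.30 (SE 0.290, adjusted p = 6.14e-07) against set A and −2.53 (SE 0.270, adjusted p = 2.83e-07) against *Hp1α/β*-null ESCs. An antisense gene, *Gm43352*, overlaps the start of *Lef1* and had 285 counts over all libraries against 3253 of *Lef1*. The strand setting of the counting is not given in the sources used here, so reads of the overlap cannot be told apart.

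*Tcf7* (ENSMUSG00000000782, chromosome 11, 52252371 to 52283014), which encodes TCF1, changed less than 1 log2 unit in the single and double mutants and more in triple-null cells. In the former its log2 fold changes ran from −0.48 in *Hp1α/γ*-null to 0.47 in *Hp1α/β*-null ESCs, and 5 of the 6 passed the adjusted p alone. The direction in *Hp1α*-null ESCs, 0.25, turned to −0.02 with set B as the control (adjusted p = 0.761), and that in *Hp1α/γ*-null ESCs lost the adjusted p with set A (−0.19, 0.136) and without set B replicate 2 (0.0516) or 3 (0.0532). In *Hp1γ*-null ESCs, at 0.02 against set A, it was lower with set B as the control (−0.24, adjusted p = 0.00271). In *Hp1β/γ*-null ESCs (0.16) it lost the adjusted p without *Hp1β/γ*-null replicate 1 (0.0750) or 2 (0.0945) or set B replicate 1 (0.0805). In triple-null cells it had 26.4, 25.1 and 27.6 CPM, against 76.1, 84.7 and 77.7 CPM in set A and 116, 111 and 104 CPM in *Hp1α/β*-null ESCs. Groups were fully separated in both comparisons, with log2 fold changes of −1.55 (SE 0.0588, adjusted p = 7.34e-15) and −2.04 (SE 0.0557, adjusted p = 1.03e-14).

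*Tcf7l1* (ENSMUSG00000055799, chromosome 6, 72626378 to 72789254), the main TCF repressor of ESCs, was highest in *Hp1β*-null ESCs, at 144, 127 and 122 CPM against 80.7, 88.6 and 84.9 CPM in set A. Its log2 fold changes in the single mutants were 0.17 for *Hp1α*-null, 0.61 for *Hp1β*-null and 0.35 for *Hp1γ*-null ESCs, all past the adjusted p but not the fold threshold. *Hp1α/γ*-null ESCs had 52.5, 57.1 and 56.0 CPM, below all set B libraries (70.8, 87.7 and 90.3 CPM), with a log2 fold change of −0.63 (adjusted p = 0.00572). Triple-null cells had 52.8, 44.2 and 49.7 CPM, a log2 fold change of −0.76 (SE 0.0591, adjusted p = 6.18e-10) against set A and −1.01 (SE 0.0590, adjusted p = 1.43e-10) against *Hp1α/β*-null ESCs. The 848 genes tested on its chromosome 6 moved the other way, with a median log2 fold change of 0.38 against set A and 0.018 for all other chromosomes, and the part of this shift in the value of *Tcf7l1* was not tested.

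*Sp5* (ENSMUSG00000075304, chromosome 2, 70474923 to 70477729), the gene with the heptamer in the sequence above and a zinc-finger factor strongly induced by Wnt signals and known to act back on other targets, rose in the mutants without *Hp1β* as long as another paralog remained. It had 1.25, 1.90 and 0.824 CPM in set A, 3.94, 2.37 and 2.52 CPM in *Hp1β*-null, 3.04, 2.95 and 2.49 CPM in *Hp1α/β*-null and 2.56, 4.01 and 3.55 CPM in *Hp1β/γ*-null ESCs. All 9 of these mutant libraries were above all 6 *wild-type* libraries, since set B had 0.869 to 1.43 CPM. The log2 fold changes were 1.12 (SE 0.335, adjusted p = 0.0157), 1.09 (SE 0.299, adjusted p = 0.00699) and 1.56 (SE 0.247, adjusted p = 8.76e-05).

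*Sp5* rests on few counts, 17 to 41 in a library of set A, and 1 library could decide a call. In *Hp1β*-null ESCs it was 0.87 (adjusted p = 0.0485) without *Hp1β*-null replicate 1, 1.08 (adjusted p = 0.0550) without set A replicate 1 and 0.88 (adjusted p = 0.0609) without set A replicate 3. In *Hp1α/β*-null ESCs it was 0.84 (adjusted p = 0.0407) without set A replicate 3. In *Hp1α*-null, *Hp1γ*-null and *Hp1α/γ*-null ESCs *Sp5* overlapped the *wild-type* sets and passed no test, with log2 fold changes of 0.23, −0.29 and −0.03. Triple-null cells had 0.343, 0.428 and 0.542 CPM, below every library of set A and of *Hp1α/β*-null ESCs, with log2 fold changes of −1.55 (SE 0.425, adjusted p = 0.00266) and −2.64 (SE 0.318, adjusted p = 1.20e-06).

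*Cdx1* (ENSMUSG00000024619, chromosome 18, 61018862 to 61036199), a homeobox gene of the primitive streak and later of the gut, was low in *wild-type* ESCs, at 0.185, 0.278 and 0.533 CPM in set A. *Hp1α/γ*-null ESCs had 1.47, 2.86 and 2.05 CPM against 0.275 to 0.642 CPM in set B, with no overlap and a log2 fold change of 2.17 (SE 0.386, adjusted p = 0.00358). Triple-null cells had 0.944, 1.14 and 0.890 CPM, above all of set A, with a log2 fold change of 1.60 (SE 0.456, adjusted p = 0.00347). Against *Hp1α/β*-null ESCs, with 0.515, 0.871 and 0.658 CPM, the change of 0.54 did not pass the test (SE 0.372, adjusted p = 0.192), although the groups did not overlap. *Hp1α/β*-null and *Hp1β/γ*-null ESCs overlapped their *wild-type* sets, with log2 fold changes of 1.05 (SE 0.505, adjusted p = 0.105) and 0.67 (SE 0.421, adjusted p = 0.202). In the 3 single mutants *Cdx1* had at most 0.825 CPM and was not tested. In the double and triple mutants it passed the count filter through the mutant libraries, so there it could in effect be called only as higher.

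*Lgr5* (ENSMUSG00000020140, chromosome 10, 115450311 to 115587780) had 10, 13 and 5 counts in set A and 9, 16 and 11 counts in triple-null cells. The log2 fold change of 0.28 (SE 0.493, adjusted p = 0.612) shows no difference that this depth could resolve. It had 1, 0 and 0 counts in *Hp1α/γ*-null and 0, 3 and 0 counts in *Hp1α/β*-null ESCs, which are at or under the limit of 3 counts that a library with no count allows, and it was not tested there. *Hp1γ*-null ESCs had 0, 4 and 2 counts, and it was not tested in them either. In CPM the libraries of each of these lines lay below those of their *wild-type* set. Triple-null cells lay above *Hp1α/β*-null ESCs without overlap, but *Lgr5* was not tested between them.

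Counted over the list, the single mutants moved few of the 8 genes past both thresholds. In *Hp1α*-null ESCs 1 of the 6 genes tested was called higher (*Lef1*), where 1.56% of all genes tested were, and none lower, where 3.31% were. In *Hp1β*-null ESCs 1 of 6 was higher (*Sp5*, 2.75% of all genes) and none lower (6.36%), and in *Hp1γ*-null ESCs 1 of 6 was higher (*Lef1*, 2.04%) and none lower (3.55%). The adjusted p, whatever the fold, was passed by 4, 4 and 3 of the 6 genes, where 45.0%, 51.1% and 46.7% of all genes passed it. With set B as the control *Lef1* was at 0.99 in *Hp1α*-null and 0.90 in *Hp1γ*-null ESCs, under the fold threshold.

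In *Hp1α/β*-null ESCs 2 of 7 were called higher (*Axin2* and *Sp5*, where 2.96% of all genes were) and none lower (5.19%), and 4 of 7 passed the adjusted p whatever the fold, as did 43.4% of all genes. The *Hp1β/γ*-null line gave the same calls, *Axin2* and *Sp5*, with 7.32% of all genes called higher and 4.54% lower there. The adjusted p was passed by 4 of 7 genes against a background of 51.7%. Primitive streak and mesoderm markers, 7 in the list, were higher in both lines, at a sum of 15.3 to 16.9 CPM against 8.39 to 10.2 CPM in set A for *Hp1α/β*-null ESCs (2 of 5 tested called higher) and 21.4 to 22.5 CPM against 10.4 to 12.4 CPM in set B for *Hp1β/γ*-null ESCs (3 of 5), with none at 0, and their part in the higher *Axin2* and *Sp5* was not tested. Feeder markers summed to 35.5 to 42.4 CPM in *Hp1α/β*-null ESCs, above set A, and to 33.2 to 33.6 CPM in *Hp1β/γ*-null ESCs, below set B.

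*Hp1α/γ*-null ESCs gave a different set of calls. There 3 of 7 were called higher (*Axin2*, *Lef1* and *Cdx1*, where 6.75% of all genes were) and 1 lower (*Nkd1*, where 16.3% were), and 6 of 7 passed the adjusted p, as did 46.5% of all genes. Without replicate 2 these 4 genes kept their calls, with log2 fold changes of 1.78, 1.62, 1.95 and −2.35 in the order named, and *Tcf7* and *Tcf7l1* were at −0.43 and −0.62. *Cdx1* passed the count filter in this comparison through the mutant libraries and could in effect be called only as higher. The summed feeder markers were 15.1 to 17.9 CPM in this line against 41.5 to 49.99 CPM in set B, with *Postn* and *Twist2* at 0 and 5 of the 6 feeder markers tested called lower, and their part in the lower *Nkd1* was not tested. The 7 primitive streak and mesoderm markers summed to 15.8 to 20.2 CPM against 10.4 to 12.4 CPM in set B, with *Mesp1* at 0. Of the 6 tested, 2 were called higher and 1 lower. Their median log2 fold change was 0.035, against −0.018 for all genes, so the list as a whole did not rise. The part of these markers in the higher *Cdx1* was not tested. ESC markers summed to 5177 to 7981 CPM in this line and to 3189 to 3267 CPM in set B.

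In triple-null cells the 8 genes did not move as one. The 8 were all tested against set A, and 2 were called higher (*Axin2* and *Cdx1*, where 25.1% of the 17501 genes tested were higher) and 3 lower (*Lef1*, *Tcf7* and *Sp5*, where 17.1% were lower), with *Tcf7l1* also past the adjusted p, so that 6 of 8 passed it, as did 81.6% of all genes. Their median log2 fold change was −0.48, against 0.035 for all genes. *Cdx1*, with 4, 6 and 11 counts in set A, passed the count filter through the triple-null libraries and could in effect be called only as higher. Against *Hp1α/β*-null ESCs, 4 of 7 were called lower (*Lef1*, *Tcf7*, *Tcf7l1* and *Sp5*, where 16.0% of 17425 genes were) and none higher, where 25.4% were, and no other gene of the 7 passed the adjusted p, which 80.6% of all genes did. *Axin2* thus overlapped *Hp1α/β*-null ESCs, whereas *Lef1*, *Tcf7*, *Tcf7l1* and *Sp5* lay below both these and set A. Feeder markers summed to 9.36 to 10.1 CPM in triple-null cells against 24.4 to 25.3 CPM in set A, and their part and that of the ESC and endoderm markers in these results was not tested.

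The level of the triple-null line depended on scaling. On the deposited TPM the median tested gene was higher in triple-null cells than in set A by 0.40 on the log2 scale. Relative to that shift, the TPM ratios were 1.39 for *Axin2*, 1.55 for *Cdx1*, −1.77 for *Lef1*, −1.60 for *Tcf7*, −0.86 for *Tcf7l1*, −1.62 for *Sp5* and −0.079 for *Nkd1*, each on the same side of 0 as the edgeR value. Without removal of the shift *Nkd1* turned to 0.32.

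**Figure D2:**
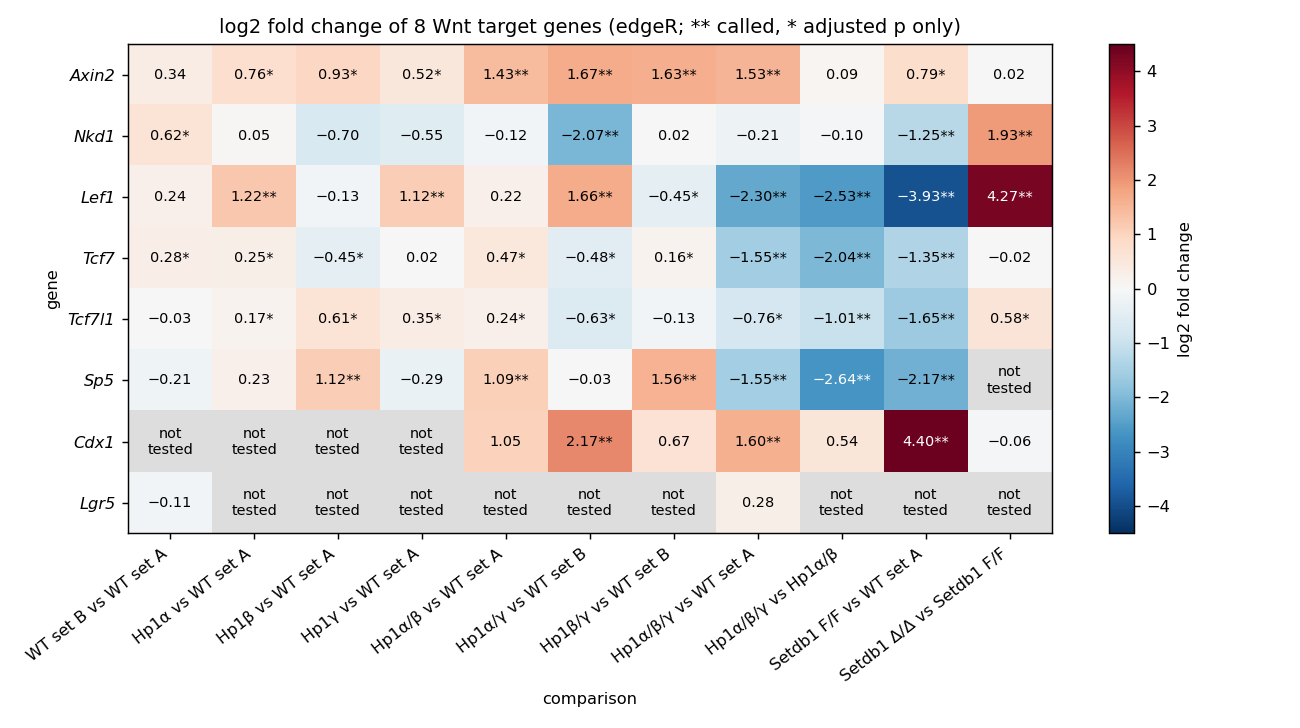
log2 fold change of the 8 genes (rows) in 11 comparisons (columns), from edgeR, with red shades for higher and blue shades for lower in the first-named group, grey for not tested, 2 asterisks for called genes and 1 for an adjusted p under 0.05 alone. Axin2 was positive against *wild-type* in every Hp1 mutant (0.52 to 1.67), whereas Lef1, Tcf7, Tcf7l1 and Sp5 were all negative in Hp1α/β/γ mutants (−0.76 to −2.30 against set A).

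*Setdb1*-null cells showed other changes. Against *Setdb1* F/F cells 2 of the 6 genes tested were called higher (*Lef1* and *Nkd1*, where 18.5% of the 16457 genes tested were) and none lower, where 11.4% were, with 3 of 6 past the adjusted p, as were 78.9% of all genes. The median log2 fold change of the 6 was 0.30, against 0.015 for all genes. *Lef1* had 4.57, 4.36 and 4.01 CPM in *Setdb1*-null and 0.150, 0.395 and 0.118 CPM in *Setdb1* F/F cells, the latter from 3, 7 and 2 counts, with a log2 fold change of 4.27 (SE 0.312, adjusted p = 9.27e-10). *Lef1* passed the count filter through the *Setdb1*-null libraries and could in effect be called only as higher. *Nkd1* had 4.02, 4.17 and 3.63 CPM against 1.10, 1.30 and 0.709 CPM, with a log2 fold change of 1.93 (SE 0.227, adjusted p = 5.35e-07). *Tcf7l1* had 40.6, 38.5 and 41.1 CPM against 25.95, 27.3 and 28.2 CPM, with a log2 fold change of 0.58 (SE 0.0534, adjusted p = 2.26e-08). No library of *Setdb1*-null cells overlapped *Setdb1* F/F cells for these 3 genes.

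For *Tcf7*, *Cdx1* and *Axin2* the *Setdb1* groups overlapped. *Tcf7* had 30.5, 32.2 and 29.3 CPM against 31.6, 31.2 and 31.4 CPM (log2 fold change −0.02, SE 0.0539). *Cdx1* had 5.88, 7.53 and 6.93 CPM against 8.30, 6.32 and 6.67 CPM (log2 fold change −0.06, SE 0.134). On the deposited TPM both were positive, at 0.44, but the median of all genes was there shifted by 0.50, and relative to it they were at −0.063 and −0.057. *Sp5* was at 0.201 to 0.284 CPM in *Setdb1*-null and 0.226 to 0.350 CPM in *Setdb1* F/F cells, and like *Lgr5* was not tested.

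These changes start from a control that is itself unlike *wild-type* ESCs for the 8 genes, in a comparison added after the data were seen. Between *Setdb1* F/F cells and set A, 6 of 7 genes were called, 1 higher (12.2% of all genes were) and 5 lower (16.1% were). *Cdx1* was higher by a log2 fold change of 4.40 (SE 0.285, adjusted p = 1.08e-10), while *Lef1*, *Sp5*, *Tcf7l1*, *Tcf7* and *Nkd1* were at −3.93, −2.17, −1.65, −1.35 and −1.25. *Axin2* was at 0.79 and passed the adjusted p alone, so that all 7 passed it, as did 76.5% of all genes. The 1243 genes tested on chromosome 11, which holds *Tcf7* and *Axin2*, had a median log2 fold change of −0.49 in this comparison, against 0.044 elsewhere, and the part of this shift in both values was not tested. Endoderm markers summed to 14.76 to 14.85 CPM in *Setdb1* F/F cells against 1.89 to 2.31 CPM in set A (4 of 4 tested called higher) and ESC markers to 5235 to 5246 CPM against 3316 to 3340 CPM (2 of 7 called higher), with none of either list at 0. In *Setdb1*-null cells these sums were 7.17 to 8.195 and 3751 to 3846 CPM, and the part of these markers was not tested.

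The level of *Lef1* in *Setdb1*-null cells lay within the range of the set B libraries and just above that of set A. With set A in place of *Setdb1* F/F cells its log2 fold change was 0.34 (adjusted p = 0.0746), and with set B 0.12 (adjusted p = 0.516), while *Tcf7l1* turned from 0.58 to −1.07 and −1.03 and *Cdx1* from −0.06 to 4.35 and 3.92. *Nkd1* passed the adjusted p against set A (0.68, adjusted p = 0.00344) but not against set B (0.08, adjusted p = 0.657). How far the *Setdb1* F/F line and the *wild-type* lines differ in origin or passage is not given in the labels, and line and genotype cannot be told apart in these latter comparisons. Feeder markers summed to 7.09 to 7.85 CPM in *Setdb1* F/F cells (with *Postn*, *Lum*, *Twist2* and *Prrx1* at 0) and 2.03 to 2.86 CPM in *Setdb1*-null cells (*Prrx1* at 0), both below set A, and their part in these differences was not tested.

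The change in triple-null cells against set A was compared directly with that in *Setdb1*-null against *Setdb1* F/F cells, by a test of their difference over 12 libraries. In the former, transfection, timing and line cannot be told apart from loss of HP1. Of the 7 genes tested 6 passed the adjusted p, 2 with a positive and 4 with a negative difference, where 31.3% and 33.6% of all 18569 genes tested did, 64.9% in all. *Axin2* (1.49, SE 0.183, adjusted p = 1.94e-07) and *Cdx1* (1.63, SE 0.398, adjusted p = 0.00105) had the more positive log2 fold change in triple-null cells. *Lef1* (−6.60, SE 0.425, adjusted p = 3.20e-12), *Nkd1* (−2.17), *Tcf7* (−1.56) and *Tcf7l1* (−1.36) had the more negative. With *Hp1α/β*-null ESCs in place of set A, *Axin2* was at 0.04 (adjusted p = 0.881) and *Cdx1* at 0.55 (adjusted p = 0.154). *Sp5* was at −1.31 with set A (adjusted p = 0.109) and at −2.41 with *Hp1α/β*-null ESCs (adjusted p = 0.00134). Its counts were only 7, 4 and 5 in *Setdb1* F/F and 4, 6 and 5 in *Setdb1*-null cells, between which it was not tested. Both *Sp5* values thus rest in effect on the HP1 libraries. They cannot show whether loss of HP1 and loss of SETDB1 differ in their effect on *Sp5*.

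**Figure D3:**
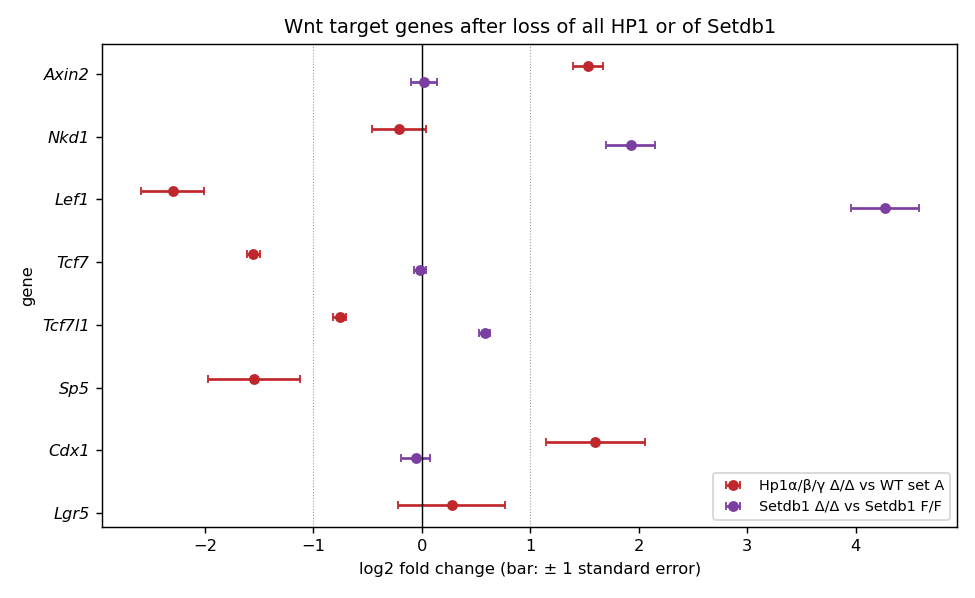
log2 fold change with its standard error (bars) of the 8 genes in triple-null cells against set A (red) and of 6 of them in Setdb1-null cells against Setdb1 F/F cells (purple), with dotted lines at the fold threshold. Lef1 lies on opposite sides of 0, at −2.30 and 4.27, and Axin2 at 1.53 and 0.02.

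Other genes of the pathway were counted in lists grouped by role. In triple-null cells 9 of 16 Wnt ligand genes tested (19 in the list) were called higher and 1 lower against set A, with a median log2 fold change of 1.67, where 25.1% of all genes tested were higher and 17.1% lower. These shares are the background of each list of the triple-null line below. Between the *wild-type* sets 12 ligand genes were tested. The 16 include genes near 0 in set A, among them *Wnt6*, *Wnt10a* and *Wnt10b*, that passed the count filter through the triple-null libraries. Such genes could in effect be called only as higher, so the 9 and the median follow in part from the filter. This also holds for genes near 0 in set A in the lists below. *Wnt10b*, at 13.5, 11.9 and 12.7 CPM against 0.370, 0.139 and 0.145 CPM, had a log2 fold change of 5.86 (SE 0.244, adjusted p = 3.22e-14). *Wnt6* also rose (2.58), from 0.185 to 0.370 CPM to 1.66 to 1.67 CPM, as did *Wnt10a* (4.17), from 0 to 0.145 CPM to 1.16 to 1.71 CPM, where the size of the fold rests on very few control counts. In *Hp1α/β*-null ESCs 5 of 12 ligand genes were higher and 1 lower, where 2.96% and 5.19% of all genes were, and *Wnt10b* stayed at 0.166 to 0.567 CPM.

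Among genes for Wnt secretion, *Wls*, which carries Wnt proteins to the cell surface, was higher in triple-null cells with a log2 fold change of 2.43, at 29.1 to 31.2 CPM against 5.51 to 6.16 CPM in set A. *Notum*, which encodes a secreted enzyme that removes the Wnt lipid and is itself a target in many tissues, fell by 3.27 on the log2 scale, to 0.901 to 1.19 CPM from 9.598 to 10.96 CPM. In *Hp1α/γ*-null ESCs both were called the other way (log2 fold changes of 2.81 for *Notum* and −2.46 for *Wls*), with *Notum* at 46.8, 62.5 and 45.9 CPM against 6.02 to 8.19 CPM in set B and *Wls* at 0.979, 0.825 and 1.21 CPM against 4.26 to 6.27 CPM, and no library of the line, replicate 2 included, overlapped set B.

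Of 12 Frizzled and LRP genes on the receiving side 7 were called lower in triple-null cells (17.1% of all genes) and none higher (25.1%), with a median log2 fold change of −1.16, among them *Fzd4* (−2.63), *Fzd7* (−2.04) and *Fzd5* (−1.48). *Fzd7*, a main Frizzled receptor of ESCs, had 22.2 to 24.2 CPM against 93.3 to 98.1 CPM. Of 7 genes tested for R-spondins, their receptors and ubiquitin ligases 2 were lower, *Rspo1* (−2.42) and *Lgr4* (−1.37), which encodes another R-spondin receptor, and 2 higher, among them *Rspo2* (1.57).

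Secreted inhibitors moved in both directions, with 3 of 9 tested higher, near the 25.1% of all genes, and 5 lower, against 17.1%. *Sfrp1*, a Wnt-binding antagonist, fell by 2.55 on the log2 scale, to 34.8 to 39.96 CPM from 211 to 233 CPM, while *Sfrp4* (2.44) and *Wif1* (1.94) rose. In the cytoplasm 4 of 13 genes were lower (17.1% of all genes) and none higher (25.1%). *Ctnnb1*, which encodes β-catenin, had 322.8, 341 and 324.3 CPM against 737.3, 736.8 and 754.5 CPM in set A, a log2 fold change of −1.14 (SE 0.0247, adjusted p = 1.40e-18), and *Axin1*, its scaffold that Wnt signals do not induce, was at −0.61 (adjusted p = 1.07e-09). *Amer1* (−1.54) and *Nkd2* (−1.20) were called lower too. In every other Hp1 mutant *Ctnnb1* was between 699.1 and 899.1 CPM.

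In the nucleus 3 of 11 genes were lower in triple-null cells (17.1% of all genes) and none higher (25.1%). These were *Tcf7l2*, the remaining TCF gene (−1.29, 5.04 to 5.83 CPM against 13.4 to 14.1 CPM), *Ctnnbip1*, which blocks β-catenin from TCF (−1.46), and *Hipk2* (−1.40). All 4 TCF/LEF genes were thus below set A in the triple-null line. Of 10 other genes reported as Wnt targets 3 were higher, among them *Sp8* (2.04), a relative of *Sp5*, which is near the background of 25.1%, and 4 lower (17.1%), among them the cell cycle gene *Ccnd1* (−2.50) and the growth regulator *Myc* (−2.22). Of 5 pluripotency genes that TCF7L1 represses in ESCs none was higher (25.1% of all genes) and 4 were lower (17.1%), among them *Klf2* (−2.31), *Nanog* (−1.50) and *Nr5a2* (−1.43), in the same cells in which *Tcf7l1* was lower. *Nanog* is also in the ESC marker list, of whose 7 genes 6 were lower.

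**Figure D4:**
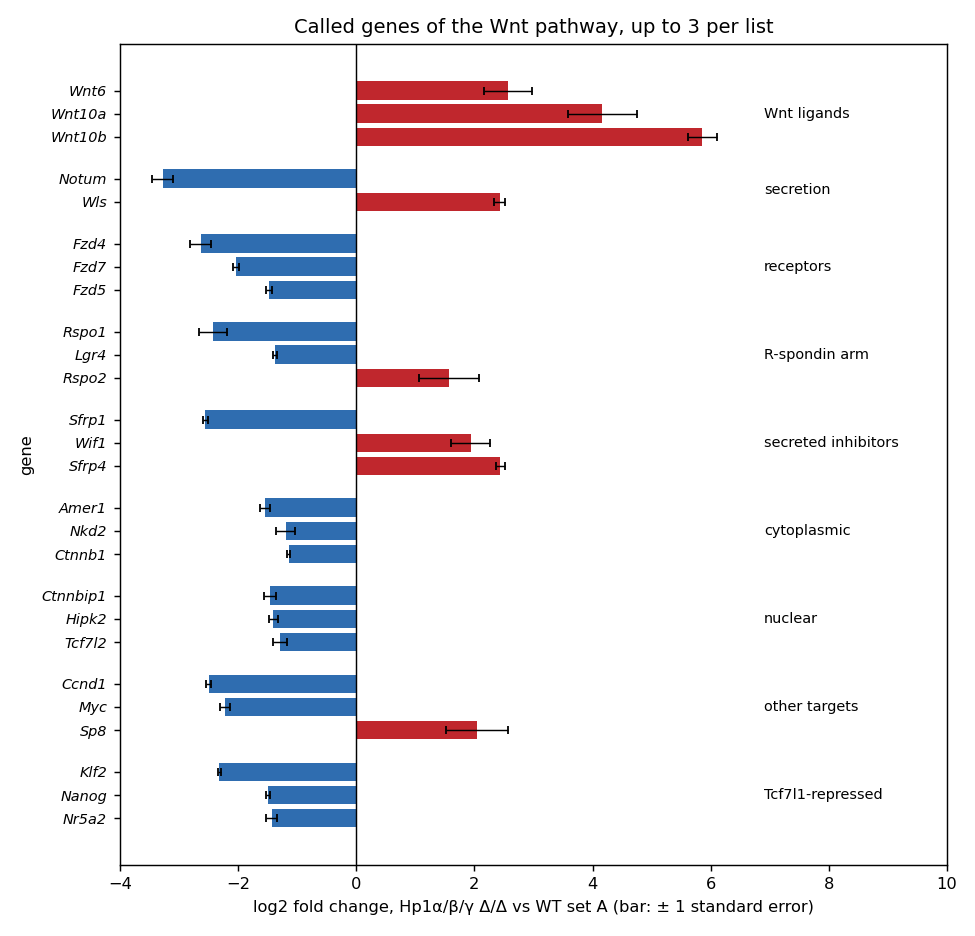
log2 fold change with its standard error of 26 called Wnt pathway genes in triple-null cells against set A, up to 3 for each list by size, with red bars for the 8 that were higher and blue bars for the 18 that were lower. The ligand bars are all positive (2.58 to 5.86), and the bars of receptors, cytoplasmic and nuclear genes are all negative (−1.14 to −2.63). The ligand genes shown passed the count filter through the triple-null libraries.

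In *Setdb1*-null cells the same lists gave another picture. Of 8 ligand genes tested 3 were higher and 4 lower against *Setdb1* F/F cells, where 18.5% and 11.4% of all genes were, with *Wnt8a* at 3.87, *Wnt3a* at −2.54 and *Wnt11* at −2.17. *Wnt8a* and *Wnt3a* each passed the count filter through the group in which they were higher. *Porcn*, the enzyme that attaches the Wnt lipid (−1.71), and *Notum* (−1.87) were lower and *Wls* (1.78) higher. Of 12 receptor genes 2 were higher, among them *Fzd6* (1.61), and 2 lower, *Fzd7* (−1.21) and *Lrp5* (−1.19), both counts near those shares. *Rspo2* was higher by 2.55, at 0.90 to 1.65 CPM against 0 to 0.565 CPM.

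No cytoplasmic gene of 13 was called, where 18.5% of all genes were higher and 11.4% lower. The adjusted p alone was passed by 4 as higher and 7 as lower. Of all genes, 78.9% passed the adjusted p in either direction. *Ctnnb1* was at −0.30 (adjusted p = 6.43e-11), with 902.2 to 915.9 CPM against 1111 to 1148 CPM, and *Axin1* at −0.07 (adjusted p = 0.166). *Sfrp1* was lower here too, at 37.8 to 41.8 CPM against 256 to 269 CPM (−2.71), as was *Dkk3* (−3.11), while *Apcdd1*, a membrane inhibitor of Wnt signalling, was higher (1.89). *Tcf7l2* was lower (−1.78), at 4.67 to 5.99 CPM against 17.8 to 18.2 CPM, with *Tle3* (−1.46) lower and its fellow corepressor gene *Tle2* (2.15) higher. The targets *Cdx4* (1.51) and *Tnfrsf19* (1.68) were called higher, and of the 5 genes repressed by TCF7L1 only *Tfcp2l1* (−1.20) was called. All 5 passed the adjusted p as lower, where 78.9% of all genes passed it in either direction.

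Across the means of the 11 conditions the 8 genes did not form one block. On log2(CPM + 1), *Tcf7* went with *Sp5* (Pearson's r = 0.78 over 11 means) and *Tcf7l1* with *Sp5* (0.78) and *Tcf7* (0.74), while *Cdx1* ran opposite to *Tcf7l1* (−0.90). *Axin2* had r between −0.33 and 0.29 with each of the other 7. These are descriptions of 11 means that share control lines and a common scaling.

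By the same measure, among 14959 genes with at least 1 CPM on average, the genes most like *Axin2* were *Nefm* (r = 0.96) and *Atp2b4* (0.94), and those most like *Lef1* were *Gm5566* (0.91) and *Grb2* (0.91). *Tcf7* was most like *Necab3* (0.99) and *Dpysl5* (0.97), *Tcf7l1* like *Tsku* (0.98) and *Unc45a* (0.96), and *Sp5* like *Unc5b* (0.94) and *Ppp1r14c* (0.94). *Cdx1* was most like *Mfn1* (0.97) and *Halr1* (0.97), and *Nkd1* like *Spg20* (0.93) and *Rnf130* (0.92). No gene of the 8 was among these nearest pairs.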

How the data were processed

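RNA-seq of 33 mouse ESC libraries was analysed from 8 deposited tables, 1 for each mutant with its control. The expected counts (RSEM-type estimates per gene, not normalized) and the TPM (per length and library) were deposited by the authors, per the file headers. The processing notes name TopHat2 2.1.1, RSEM, edgeR and GRCm38.p5, with no roles, and the labels a TruSeq RNA kit where the study's methods name a stranded one. Columns of the authors' own comparisons (fold change, p, adjusted p, group means) were not used. TPM of the rows held summed to 954064 to 988104 in a library.

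Counts were rounded. Each comparison was fitted on its own libraries, with all genes kept by filterByExpr (minimum count 10), TMM scaling and edgeR 4.0.16's quasi-likelihood test in R 4.3.3 (limma 3.58.1), adjusted by Benjamini-Hochberg over all genes tested, at an adjusted p of 0.05 and an absolute log2 fold change of 1. CPM were scaled once over all libraries. Exact permutation of 3 against 3 libraries cannot go below 0.1. Groups came from the labels. Gene positions are from GENCODE M21, by identifier (55227 of 55487 matched).

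The 8 genes, the pathway lists and the marker lists were chosen with earlier results of these data known. Other genes were named by rule: per list, up to 3 called genes with the largest change in triple-null cells and up to 3 in *Setdb1*-null cells, where the groups did not overlap and the higher one averaged 1 CPM or more, with *Ctnnb1*, *Axin1* and *Tcf7l2*. For each of the 8 genes but *Lgr5*, which stayed under 1 CPM, the nearest pair by r was named. *Gm43352* and marker genes at 0 were named outside that rule, after their values were seen, as were *Wls* and *Notum* of *Hp1α/γ*-null ESCs and *Wnt10b* of *Hp1α/β*-null ESCs. Alternatives were RLE size factors, DESeq2 1.42.0, no filter beyond 1 count, no fold threshold, the other *wild-type* set as control, *Hp1α/β*-null ESCs in place of set A, a replicate block and each library left out. The *Setdb1*-null comparisons with *wild-type* sets, *Setdb1* F/F against set A and the TPM ratios were added after seeing the data. As a check, the edgeR fit ran first on simulated counts for triple-null cells against set A and for *Setdb1*-null against *Setdb1* F/F cells. It also ran so for the difference of these effects, but the other comparisons and the alternatives were not checked in this way.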

Additional observations from a re-analysis of the deposited data

Results flagged for a closer look

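In 6 of the 8 genes the log2 fold change of triple-null cells against set A differed from that of *Setdb1*-null against *Setdb1* F/F cells by the interaction test in edgeR, as did 64.9% of all genes tested. The difference, triple-null minus *Setdb1*-null, was 1.49 for *Axin2*, −6.6 for *Lef1*, −1.56 for *Tcf7*, −1.36 for *Tcf7l1*, 1.63 for *Cdx1* and −2.17 for *Nkd1*. All 6 values involve a control, *Setdb1* F/F, that differed from set A, by −3.93 for *Lef1*, −1.65 for *Tcf7l1*, −1.35 for *Tcf7*, −1.25 for *Nkd1*, 4.40 for *Cdx1* and 0.79 for *Axin2*, so that the contrast is between each mutant and its own control and not between levels. With *Hp1α/β*-null ESCs in place of set A the difference was no longer past the adjusted p for *Axin2* (0.04, adjusted p = 0.881) and *Cdx1* (0.55, adjusted p = 0.154). Groups of 3 libraries were not searched for single libraries far from the others.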

How the results depend on the processing

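Of 992 values of the 8 genes recomputed under alternatives, 905 kept their direction and side of the adjusted p threshold, 29 lost it, 14 gained it and 44 reversed, of which 3 had an adjusted p under 0.05 to begin with. Without the fold threshold the count of called genes was 4 for *Hp1α*-, 4 for *Hp1β*-, 3 for *Hp1γ*-, 4 for *Hp1α/β*- and 4 for *Hp1β/γ*-null ESCs and 2 between the *wild-type* sets. The counts that follow keep both thresholds. With set B as the control the count of called genes was 0 for *Hp1α*- and 2 for *Hp1β*-null ESCs, and without the count filter 2 for *Hp1γ*-null ESCs. For *Setdb1*-null cells it was 4 with either *wild-type* set as the control. With libraries left out it ran from 0 (without *Hp1β*-null replicate 1 or set A replicate 3) to 2 for *Hp1β*-null, from 1 to 2 for *Hp1γ*-null (2 without set A replicate 3) and from 1 (without set A replicate 3) to 2 for *Hp1α/β*-null ESCs. It stayed at 5 for triple-null cells against set A.

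Values that reversed with set B as the control were *Tcf7* (−0.022) and *Nkd1* (−0.56) in *Hp1α*-null, *Tcf7* (−0.24) in *Hp1γ*-null and *Lef1* (−0.014) in *Hp1α/β*-null ESCs. *Sp5* in *Hp1α/γ*-null ESCs was 0.020 with RLE size factors and 0.022 with DESeq2. In *Setdb1*-null cells *Axin2* was −0.0066 without the filter, and *Tcf7l1* (−1.07 and −1.03) and *Cdx1* (4.35 and 3.92) reversed with set A and set B as controls. On the deposited TPM, *Nkd1* was 0.32 in triple-null cells against set A and 0.34 against *Hp1α/β*-null ESCs, *Tcf7* 0.44 and *Cdx1* 0.44 in *Setdb1*-null cells, and *Tcf7l1* 0.011 between the *wild-type* sets. The TPM median of all genes shifted by 0.40, 0.44 and 0.50 in the first 3 of these contrasts, by −0.35 for *Hp1α/γ*-null ESCs and by −0.10 for *Setdb1* F/F cells against set A.

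With 1 library left out, values near 0 crossed it. These were *Sp5* (−0.018 to 0.58) and *Nkd1* (−0.25 to 0.30) in *Hp1α*-null, *Tcf7* (−0.0097 to 0.069) and *Sp5* (−0.60 to 0.061) in *Hp1γ*-null, *Sp5* (−0.27 to 0.24) in *Hp1α/γ*-null and *Nkd1* (−0.063 to 0.14) in *Hp1β/γ*-null ESCs. In triple-null cells they were *Lgr5* (−0.080 to 0.56) against set A and *Axin2* (−0.065 to 0.14) against *Hp1α/β*-null ESCs. In *Setdb1*-null cells they were *Axin2* (−0.041 to 0.085), *Tcf7* (−0.053 to 0.016) and *Cdx1* (−0.14 to 0.068), and between the *wild-type* sets *Tcf7l1* (−0.091 to 0.075), *Sp5* (−0.45 to 0.15) and *Lgr5* (−0.39 to 0.19).

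Same-numbered libraries did not deviate together (correlations of −0.0616 to 0.0558), which does not show whether they came from the same experiment. With the replicate number as a block, 80 of 81 values kept their side of the threshold, and *Lef1* in *Hp1β/γ*-null ESCs was −0.44 (adjusted p = 0.0551). Depth limits *Lgr5* in all lines and *Cdx1* in *wild-type* and single-mutant ESCs, since 3 counts, the limit that a library with no count allows for counting error only, correspond to 0.116 to 0.177 CPM.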
